A study of Mus musculus with 6 samples.

Results

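The reads of 10 marker genes of fat and of the serous lining were followed through 6 liver libraries of pregnant mice. The adipocyte genes were Adipoq, Cfd, Plin1, Retn and Lep, and the mesothelium genes were Msln, Upk3b, Upk1b, Wt1 and Gpm6a. These 10 of the 56691 genes in the deposited table were chosen by their high read counts in the library KPF 2, so their excess in that library is a description and carries no test. The KPF libraries (KPF 1, 2 and 3) came from dams with a hepatocyte-specific deletion of Chrebp (hChrebp-KO), made per the study's methods by crossing Chrebp flox/flox mice with mice that carry Cre under the albumin promoter. The WPF libraries (WPF 2, 3 and 4) came from dams labelled WT, which the methods describe as Chrebp flox/flox mice without Cre. All 6 dams were fed a high-fructose diet (HFrD) during pregnancy, were mated with Chrebp flox/flox males and were killed late in pregnancy, and their age is not given in the sources used here. Pieces of whole liver were sequenced as poly(A) RNA, so the libraries hold every cell type of the piece, while the deletion is limited to hepatocytes.

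Adipocytes store triglyceride in a single lipid droplet and secrete hormones, among them adiponectin, leptin and, in mice, resistin and adipsin. Mesothelium is the flat epithelium that covers the liver surface, the omentum and the rest of the peritoneal cavity, and fat depots of the abdomen carry it on their surface. Hepatocytes are not known as a main source of these genes, while the liver capsule itself bears mesothelial cells.

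The start regions of 4 of these genes are shown because they contrast genes with an excess in KPF 2 (Cfd, Retn, Upk3b) with the member that had no read at all (Lep). Each is the 250 bases before the annotated start, 5′ to 3′ on the strand of the gene, from RefSeq on GRCm38.p6, and capitals mark matches to the motifs named next. Cfd lies at chr10:79890603-79890852, Retn at chr8:3655520-3655769, Lep at chr6:29059971-29060220 and Upk3b at chr5:136038246-136038495, all on the plus strand.
Cfd: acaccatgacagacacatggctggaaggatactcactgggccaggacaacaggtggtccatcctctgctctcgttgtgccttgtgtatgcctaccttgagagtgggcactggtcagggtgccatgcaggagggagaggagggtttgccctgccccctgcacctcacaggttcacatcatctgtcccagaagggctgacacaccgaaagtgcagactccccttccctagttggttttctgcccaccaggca
Retn: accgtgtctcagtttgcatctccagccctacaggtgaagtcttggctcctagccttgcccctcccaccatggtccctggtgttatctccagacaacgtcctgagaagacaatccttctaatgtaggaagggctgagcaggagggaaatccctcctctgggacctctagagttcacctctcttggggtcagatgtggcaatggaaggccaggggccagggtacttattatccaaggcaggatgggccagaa
Lep: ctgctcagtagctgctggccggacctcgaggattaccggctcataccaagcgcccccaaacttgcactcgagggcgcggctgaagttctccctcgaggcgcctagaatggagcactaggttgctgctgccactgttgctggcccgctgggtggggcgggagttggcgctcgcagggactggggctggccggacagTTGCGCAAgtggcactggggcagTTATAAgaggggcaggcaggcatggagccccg
Upk3b: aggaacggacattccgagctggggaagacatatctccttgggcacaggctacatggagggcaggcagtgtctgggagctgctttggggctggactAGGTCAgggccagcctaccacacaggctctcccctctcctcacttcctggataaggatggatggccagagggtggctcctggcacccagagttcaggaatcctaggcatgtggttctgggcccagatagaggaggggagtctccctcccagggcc
The letters searched on both strands were TTGCNNAA for a C/EBP-type site, AGGTCA for a nuclear receptor half-site and TATAA for a TATA box. Over 32851 promoters of this length, 9.56% held the first, 14% the second and 22.8% the third. Lep held 1 C/EBP-type match that reads the same way on both strands, at 55 to 48 bases before its start, and TATA box letters between 32 and 27 bases before it. Plin1 held 2 C/EBP-type matches, at 187 to 180 and at 58 to 51 bases before its start. Upk3b held 1 half-site, at 155 to 150 bases. Cfd, Retn and Adipoq held none of the 3 motifs. The letters were chosen after a promoter had been seen, and a match in this window says nothing on binding.

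The libraries held 10694496 to 14496630 counted reads, so that 3 reads, taken here as the limit that a count of 0 allows, correspond to 0.176 to 0.288 CPM, the read count scaled to library size with TMM factors. These limits and the intervals below cover counting error only. The reads of Mlxipl, which encodes ChREBP, were 1883, 7909 and 8834 in KPF 1, 2 and 3 against 11122, 17939 and 15011 in WPF 2, 3 and 4. As CPM these were 179, 700 and 849 against 961, 1260 and 879, so KPF 3 lay just below WPF 4 and KPF 1 was the lowest. A count over the whole gene does not isolate the deleted exon, so these reads check the labels only in part. The log2 fold change of Mlxipl over all 6 libraries was -0.84 (SE 0.53, edgeR adjusted p = 0.585). The hepatocyte list (Alb, Apoa1, Ttr and Fgb measured) summed to 77860 CPM in KPF 2 and to 85110 to 170700 CPM in the other libraries. KPF 2 stood apart from the rest in striated muscle genes, as given with the other marker lists.

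Cfd encodes adipsin, the protease complement factor D. Gene positions here are those of the deposited table, which the submitters' notes place on GRCm39, and Cfd spans chr10:79726687-79728489. It was counted 44, 195 and 13 times in KPF 1, 2 and 3 and 0, 2 and 0 times in WPF 2, 3 and 4. As CPM these were 4.19, 17.2 and 1.25 against 0, 0.141 and 0, which is 7.56 ± 8.52 in KPF and 0.0468 ± 0.0811 in WPF (SD, n = 3 each). All 3 KPF libraries lay above all 3 WPF libraries, and the SD within KPF exceeded the KPF mean. KPF 1 and 3 both lay above every WPF library in 15.2% of the 16261 genes with at least 20 reads outside KPF 2.

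Retn (chr8:3705770-3710110) encodes the adipokine resistin and had 4, 43 and 8 reads in KPF 1, 2 and 3 against 0, 1 and 0 in WPF 2, 3 and 4. The order of the KPF libraries thus differed from that of Cfd, with KPF 3 above KPF 1. At 8 against 4 reads, that order is within counting error. Adipoq (chr16:22965286-22976778), the gene of adiponectin, had 3, 14 and 0 reads in KPF and 0, 3 and 0 in WPF. The groups overlapped for Adipoq, since KPF 3 was at 0 and WPF 3 held as many reads as KPF 1.

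Plin1 (chr7:79369966-79382651) encodes the perilipin that coats the lipid droplet of adipocytes. Its reads were 9, 12 and 1 in KPF and 0, 0 and 1 in WPF, and at 1 read KPF 3 and WPF 4 cannot be told apart. Lep (chr6:29060219-29073876), the gene of leptin, had 0 reads in all 6 libraries, KPF 2 included, which allows up to 0.265 CPM there.

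Msln (chr17:25967587-25973352) encodes mesothelin, a surface protein of mesothelial cells. It was counted 68, 86 and 16 times in KPF 1, 2 and 3 and 9, 31 and 9 times in WPF 2, 3 and 4. KPF 1 and KPF 2 were both high at 6.48 and 7.61 CPM, while KPF 3 at 1.54 CPM lay below WPF 3 at 2.18 CPM, so the groups overlapped.

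Upk3b (chr5:136067350-136075341) and Upk1b (chr16:38593546-38620690) encode uroplakins, membrane proteins first known from the urothelium and also made by mesothelium. Upk3b had 6, 31 and 3 reads in KPF and 2, 2 and 3 in WPF. Upk1b had 1, 24 and 12 reads in KPF and 0, 4 and 0 in WPF. KPF 2 was the highest library for both, and for Upk1b KPF 1 at 0.0953 CPM lay below WPF 3 at 0.281 CPM. Of the 6 urothelium markers in the list searched (Upk1a, Upk2, Upk3a, Krt5, Krt20 and Psca), the sum was 0.265 CPM in KPF 2 and 0.211 to 1.30 CPM in the other libraries.

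Wt1 (chr2:104956874-105003961) encodes a transcription factor of mesothelium that other mesodermal cells also express. Its reads were 3, 6 and 12 in KPF and 0, 13 and 4 in WPF, with the highest level, 1.15 CPM, in KPF 3. Gpm6a (chr8:55407878-55513906), a membrane glycoprotein gene of neurons that mesothelial cells also express, had 18, 16 and 3 reads in KPF and 5, 2 and 10 in WPF, with the highest level, 1.72 CPM, in KPF 1. Wt1 and Gpm6a therefore did not peak in KPF 2, although both were listed as high there. Against KPF 2 these peaks rest on 12 against 6 reads for Wt1 and 18 against 16 for Gpm6a, which is within counting error.

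**Figure D1:**
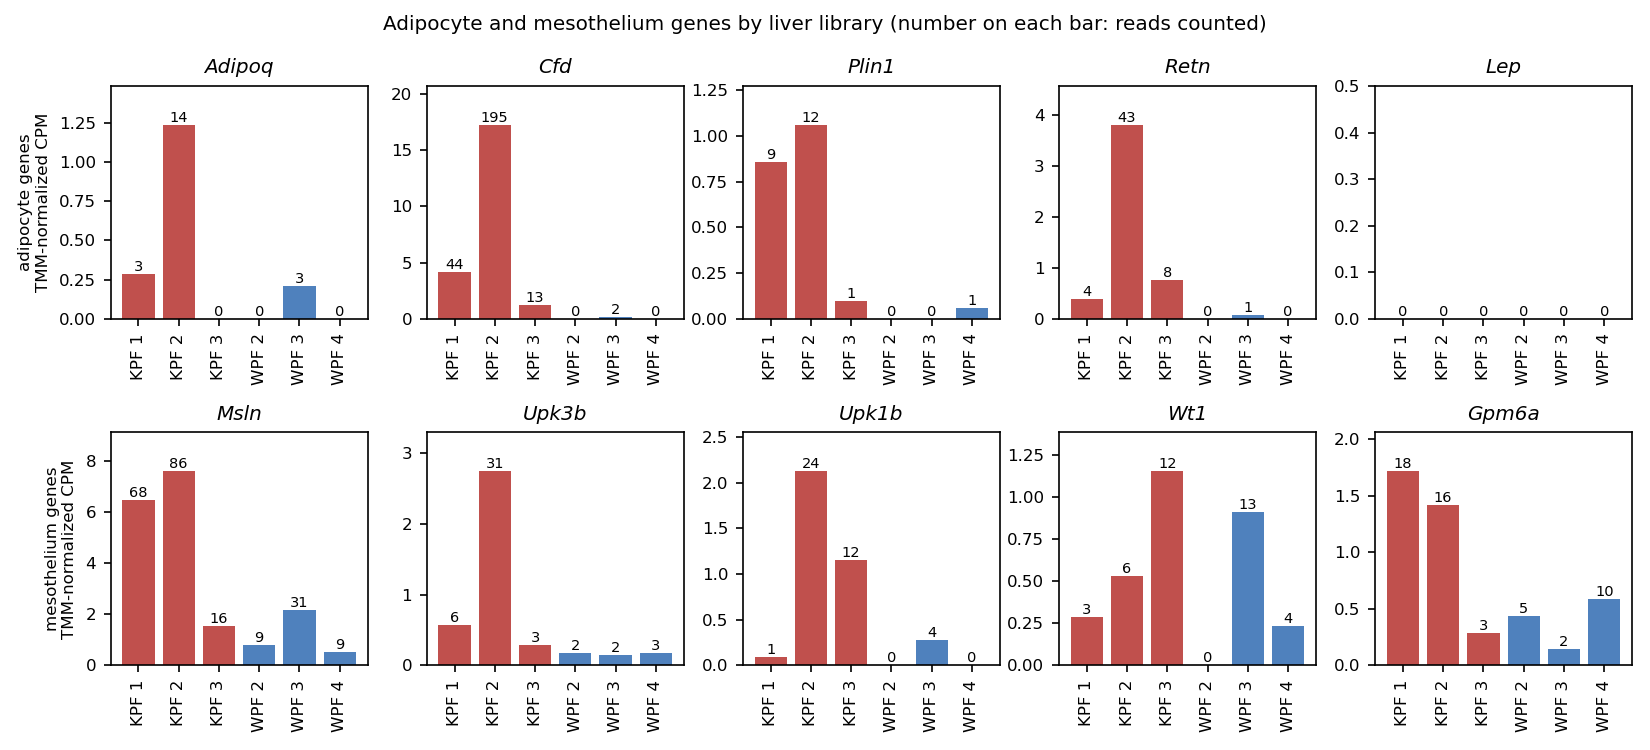
Bars give the TMM-normalized CPM of each of the 10 genes in KPF 1, 2 and 3 (red) and WPF 2, 3 and 4 (blue), each panel on its own linear axis from 0, with the reads counted written on each bar. KPF 2 is the highest bar in 7 panels, Wt1 peaks in KPF 3 and Gpm6a in KPF 1, and Lep is at 0 throughout.

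Per length of the gene, the deposited FPKM values of KPF 2 ranked Cfd first at 18.6, then Msln at 2.47, Retn at 2.40, Upk1b at 1.01, Adipoq at 0.89, Upk3b at 0.77, Gpm6a at 0.44, Plin1 at 0.23, Wt1 at 0.09 and Lep at 0. Msln and Retn were neighbours in this order at 86 and 43 reads, and the pairs from Upk1b to Upk3b rested on 14 to 31 reads each. Only Cfd and Msln reached a mean FPKM of 1 over the 6 libraries, so 8 of the 10 genes stayed below the minimum used for the tests across genes.

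The ratio of KPF 2 to the highest of the other 5 libraries, on the CPM scale, sorted the members further. It was 4.95 for Retn (95% exact counting interval 2.30 to 12.2), 4.80 for Upk3b (1.97 to 14.1), 4.33 for Adipoq (1.21 to 23.5) and 4.12 for Cfd (2.95 to 5.85). These 4 members passed a line drawn at 2 times the highest other library, with Cfd the lowest inside it. Just outside it lay Upk1b at 1.84 (0.885 to 4.04). Plin1 at 1.24 (0.479 to 3.33), Msln at 1.17 (0.844 to 1.64), Gpm6a at 0.825 (0.394 to 1.71) and Wt1 at 0.46 (0.142 to 1.325) followed. Each of these intervals outside the line held 1. Over all 16919 genes with at least 20 reads summed, 3.83% passed this line in KPF 2. Since the members were chosen for KPF 2, nothing is read from their share. KPF 1 was the next library for Cfd, Plin1, Adipoq, Msln and Upk3b, and with KPF 1 left out the ratio became 13.8 for Cfd, 11.05 for Plin1, 3.49 for Msln and 2.42 for Gpm6a. With KPF 3 left out, Upk1b reached 7.55 and Retn 9.98.

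**Figure D2:**
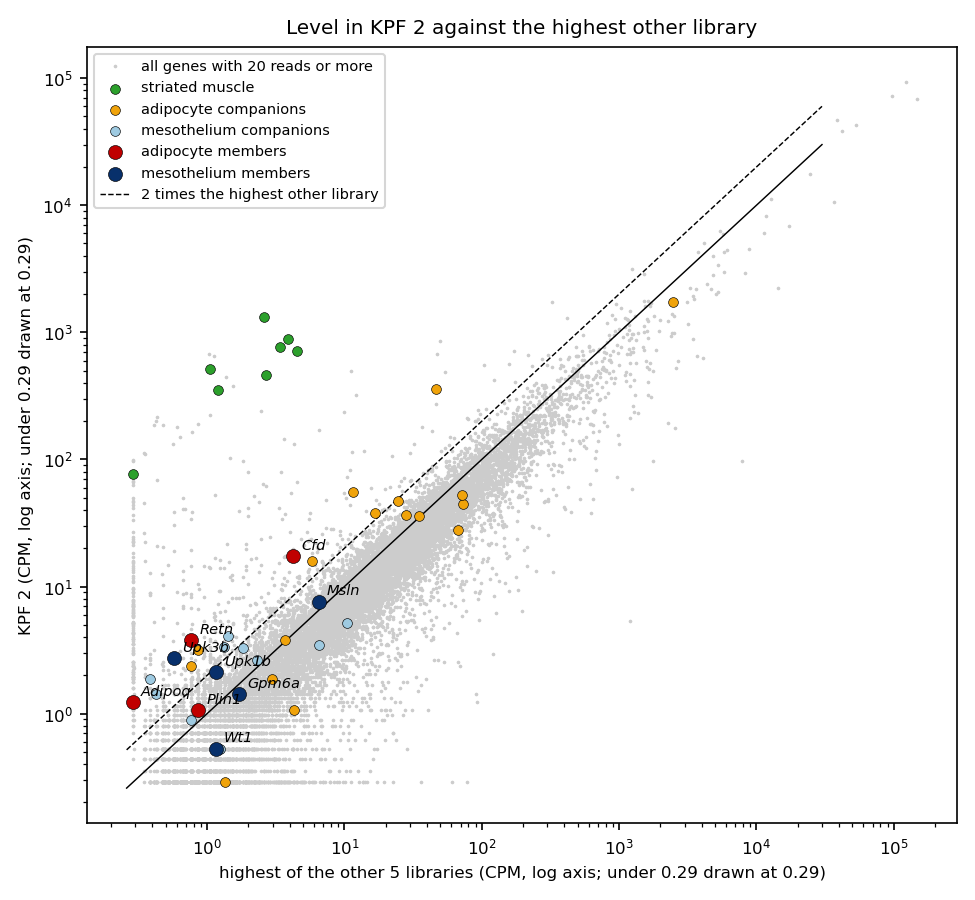
Each point is a gene with at least 20 reads summed, with its CPM in KPF 2 against its highest CPM among the other 5 libraries, on log axes, values under the limit drawn at the limit. Retn, Upk3b, Adipoq and Cfd lie above the dashed line at 2 times the highest other library, Upk1b, Plin1 and Msln lie between the lines, and the 8 striated muscle genes lie far above.

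Added up, the adipocyte members had 60, 264 and 22 reads in KPF 1, 2 and 3 and 0, 6 and 1 reads in WPF 2, 3 and 4. The mesothelium members had 96, 163 and 46 reads in KPF and 16, 52 and 26 in WPF. KPF 2 exceeded the highest other library 4.09-fold in the adipocyte sum and 1.58-fold in the mesothelium sum. Within the adipocyte sum, Cfd made up 73.3% of the reads in KPF 1 (95% Wilson interval 61.0 to 82.9), 73.9% in KPF 2 (68.3 to 78.8) and 59.1% in KPF 3 (38.7 to 76.7). Retn made up 6.67% in KPF 1 (2.62 to 15.9), 16.3% in KPF 2 (12.3 to 21.2) and 36.4% in KPF 3 (19.7 to 57.1). Msln made up 70.8% of the mesothelium reads in KPF 1 (61.1 to 79.0), 52.8% in KPF 2 (45.1 to 60.3) and 34.8% in KPF 3 (22.7 to 49.2). The intervals of KPF 1 and KPF 3 did not overlap for Retn or Msln and overlapped for Cfd. They cover counting error in single libraries, with 22 adipocyte reads in KPF 3, and not the spread between mice. In RNA of whole tissue, more cells of a type and more RNA per cell cannot be told apart.

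KPF 1 and KPF 3 were also set against the 3 WPF libraries, leaving out the library for which the members were chosen. The expression minimum of this fit was the mean FPKM over all 6 libraries, KPF 2 included. Over the 5 libraries fitted, Cfd kept a mean FPKM of 1.17, Msln had 0.746 and the other members 0.196 or less, so that with the minimum taken over these 5, an alternative chosen after seeing the data, Cfd alone of the members had a test. Cfd was higher in KPF 1 and 3 by a log2 fold change of 5.59 (SE 1.09), above every WPF library in both. Its edgeR p was 0.00121 unadjusted and 0.356 after Benjamini-Hochberg adjustment (0.366 with the minimum over the 5 libraries), so it did not pass at 0.05. By DESeq2 its adjusted p was 0.00476, and by edgeR without the expression minimum 0.0145, while over all the alternatives that gave one it ranged from 0.00476 to 0.927. Cfd passed the expression minimum through the KPF libraries alone, the group where it was high. Msln, which passed it only through KPF 2, had a log2 fold change of 1.78 (SE 0.79), and without KPF 1 this was 0.41.

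Across all 10860 genes of this fit, 0% passed an adjusted p of 0.05, 5.04% were higher and 4.47% lower at an unadjusted p under 0.05 with a change of at least 1.5-fold, the criterion that "called" stands for here. There were 1072 genes at an unadjusted p under 0.05, and DESeq2 gave 168 genes with an adjusted p under 0.05. The other 8 members were below the minimum. The fit without a minimum that gave Cfd an adjusted p of 0.0145 tested 9 of the 10 members, and no other member passed, with edgeR adjusted p of 0.408 for Retn, 0.420 for Msln, 0.524 for Plin1 and 0.678 to 0.892 for the rest. KPF 1 and KPF 3 both lay above every WPF library in CPM for Cfd, Plin1, Retn and Upk3b, where the background over the 16919 genes with at least 20 reads was 15.3%. Without KPF 2, Plin1, Retn and Upk3b had 11, 13 and 16 reads, so they reached 20 reads only through the library they were chosen for, and nothing is read from their number. With the 20 reads counted over the 5 libraries, the members left were Cfd, Msln, Wt1 and Gpm6a, of which Cfd had this order, against 15.2% of 16261 genes. For Plin1 and Upk3b that order rests on 1 read against 1 and 3 reads against 3, so it is within counting error.

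**Figure D3:**
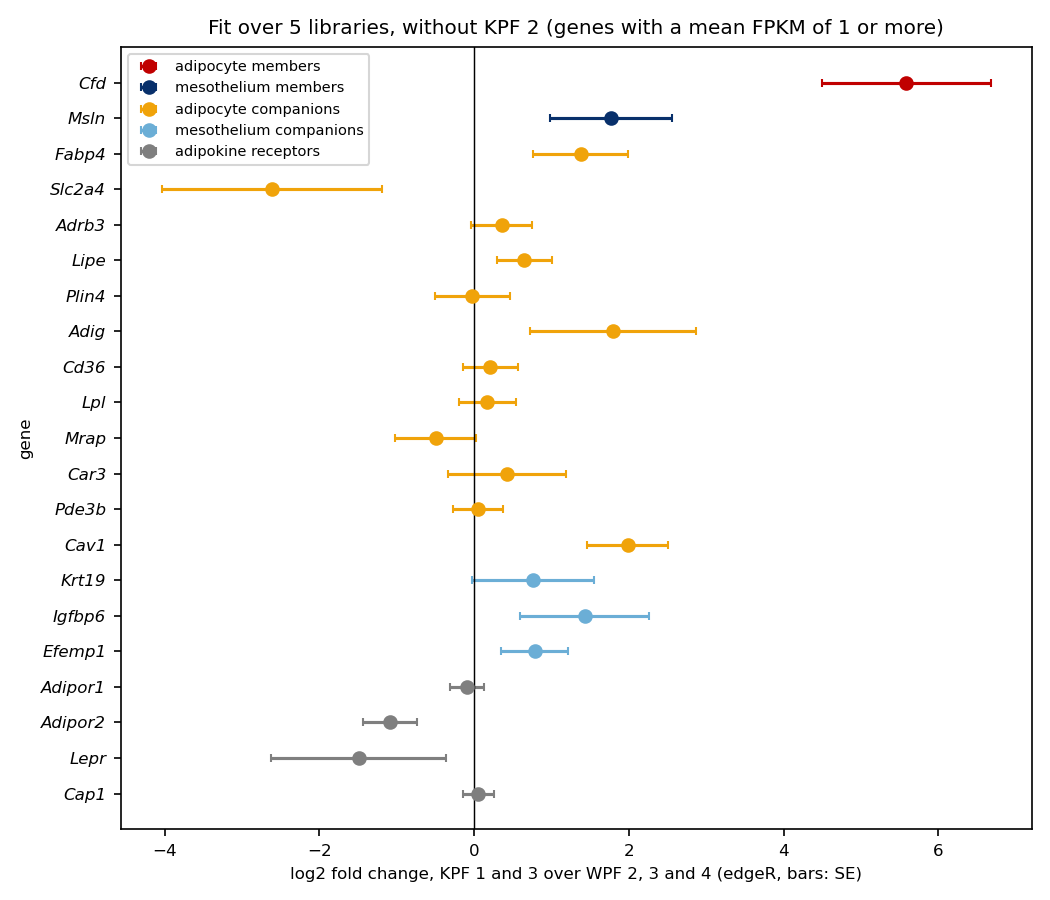
Points give the log2 fold change of KPF 1 and 3 over WPF 2, 3 and 4 from edgeR, with bars of 1 SE. Shown are the members, companion genes and adipokine receptors with a mean FPKM of at least 1 over all 6 libraries, KPF 2 included. Cfd lies farthest to the right at 5.59, Cav1 at 1.98, Adig at 1.80 and Msln at 1.78 follow, and Adipor2 lies at -1.09. Cav1, Adig and Msln reached the minimum only through KPF 2, with means of 0.652, 0.46 and 0.746 over the 5 libraries fitted.

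A list of 20 further adipocyte genes held 17 with at least 20 reads, and 6 of these passed the 2-fold line in KPF 2. Over all 16919 genes 3.83% did. Sncg reached 20 reads only through KPF 2, with 17 in the other libraries. The list was chosen with earlier results of these data known, so nothing is read from its share. Lpl, the lipoprotein lipase that adipocytes and muscle both make, had 4051 reads in KPF 2 against 211 to 589 elsewhere, a ratio of 7.77. Slc2a4, the insulin-responsive glucose transporter of fat and muscle, had 622 reads against 2 to 165, a ratio of 4.75. Adig, which encodes a small protein of adipocytes, had 36 reads against 0 to 9 and a ratio of 3.71. Sncg, the gene of gamma-synuclein, had 27 reads against 1 to 8 and a ratio of 3.13, and Cav1, a caveolar coat gene of fat and endothelium, had 180 against 10 to 61 and 2.74. The sixth was Plin4, a lipid droplet coat gene of fat and muscle, at 2.26.

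Lpl was the second most abundant gene of that list after Car3, and the other 4 of the 5 most abundant peaked outside KPF 2. Car3, a carbonic anhydrase gene that hepatocytes, fat and muscle express, ranged from 293 CPM in KPF 1 to 2456 CPM in KPF 3 and was 1718 CPM in KPF 2. It dominated the summed list, which was 2443 CPM in KPF 2 and 604 to 2682 CPM elsewhere. Cd36, a fatty acid carrier, was highest in KPF 1 at 72.6 CPM, Mrap, an accessory protein of melanocortin receptors, in WPF 3 at 66.8 CPM and Pde3b, a phosphodiesterase of insulin signalling, in KPF 3 at 71.7 CPM.

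With all 6 libraries, where 0% of 10866 genes passed an adjusted p of 0.05 and 5.83% were called higher and 3.95% lower, 5 of the 12 adipocyte companions tested were called higher and 0 lower. There, 1172 genes had an unadjusted p under 0.05, and DESeq2 gave 156 genes with an adjusted p under 0.05. The 5 were Fabp4, Lipe, Adig, Lpl and Cav1, and the median log2 fold change of the 12 was 0.90 against 0.02 over all genes tested. Adig (mean FPKM 1.035 over 6 libraries, 0.46 without KPF 2) and Cav1 reached the expression minimum only through KPF 2. The count and the median of the 12 therefore depend in part on that minimum. The list was also chosen with earlier results of these data known, so nothing is read from either. Without KPF 2 the count was 1 of 12 (Cav1, 1.98, SE 0.53, edgeR adjusted p = 0.424), against 5.04% of all genes called higher. The median was then 0.28 against -0.01 over all genes. Cav1 entered this fit through KPF 2, since its mean FPKM was 1.31 over 6 libraries and 0.652 over the 5, and with the minimum over the 5 libraries the count was 0 of 10 and the median 0.19. Lpl had a log2 fold change of 2.27 with KPF 2 and of 0.17 without it, and Slc2a4 had 1.57 and -2.61. Fabp4, the fatty acid binding protein of adipocytes, had 34.7, 36.1 and 7.69 CPM in KPF and 11.8, 7.87 and 4.86 CPM in WPF, so KPF 1 was close to KPF 2 for this gene. Car3, Cd36, Mrap and Pde3b had log2 fold changes of 0.55, 0.13, -0.60 and 0.04 over the 6 libraries, none of them called.

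Of 15 further mesothelium genes, 10 had at least 20 reads and 4 passed the line in KPF 2, against 3.83% of all genes. Lrrn4 reached 20 reads only through KPF 2, with 13 in the other libraries, so nothing is read from this share. Slpi, a secreted protease inhibitor of epithelia, had 21 reads in KPF 2 against 3 to 5 elsewhere and a ratio of 4.83. Lrrn4, a leucine-rich repeat gene of mesothelium, had 16 reads against 0 to 6 and a ratio of 3.36. Igfbp6, which binds insulin-like growth factors, had 46 against 2 to 15 and 2.85, and Pdpn, the podoplanin gene, 38 against 3 to 14 and 2.52. Bnc1, a zinc finger gene, had 15 reads in all, below the minimum, of which 11 were in KPF 2.

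The keratin genes Krt19 and Krt7, shared by mesothelium and bile ducts, had 39 and 30 reads in KPF 2 against 69 and 21 in KPF 1. Efemp1, an extracellular matrix gene, peaked in KPF 1 at 10.4 CPM. Rspo1, a secreted Wnt agonist, had 19, 37 and 11 reads in KPF and 3, 5 and 2 in WPF, so that its groups did not overlap. With 20 reads counted outside KPF 2, KPF 1 and 3 lay above every WPF library for 2 of 9 companions (Rspo1 and Aldh1a2). The share over 16261 genes was 15.2%, so nothing is read from this order. Over the 6 libraries, 1 of 3 mesothelium companions tested was called higher (Igfbp6, 2.40, edgeR adjusted p = 0.430) and 0 lower, with Krt19 at 0.72 and Efemp1 at 0.63. Over all 10866 genes 5.83% were called higher and 3.95% lower. Without KPF 2 none of the 3 was called, against 5.04% higher and 4.47% lower over all genes, and Igfbp6 was 1.43 (SE 0.84). With 3 genes tested, nothing is read from these counts. Igfbp6 reached the expression minimum only through KPF 2, at a mean FPKM of 1.088 over 6 libraries and 0.578 over those 5. The summed list was 27.95 CPM in KPF 2 and 26.5 CPM in KPF 1, against 7.78 to 15.0 CPM in the other libraries, so KPF 1 lay close to KPF 2 in this sum.

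The receptors that read the adipokines were measured in the same livers. Adipor2, the adiponectin receptor most abundant in liver, had 55.4, 68.3 and 73.0 CPM in KPF and 161, 158 and 87.4 CPM in WPF, with no overlap. The share of all genes with this order was not computed, so nothing is read from it. The log2 fold change of Adipor2 was -1.05 with all libraries (edgeR adjusted p = 0.430) and -1.09 without KPF 2 (SE 0.35, edgeR adjusted p = 0.431), called lower but not past the adjusted threshold. Adipor1 overlapped between the groups, at 38.0 to 45.9 CPM in KPF and 39.3 to 48.7 CPM in WPF, as was Cap1, a cyclase-associated gene listed as a resistin receptor, at 36.8 to 38.3 and 35.3 to 38.7 CPM. Their log2 fold changes were -0.03 and 0.05, and both changed sign under other settings. Lepr, the leptin receptor, had 11.6, 3.63 and 1.06 CPM in KPF and 22.1, 28.9 and 2.40 CPM in WPF, which overlap through WPF 4 (log2 fold change -1.71, edgeR adjusted p = 0.560). Cdh13, the cadherin that binds adiponectin, had 50 reads in KPF 2 against 8 to 18 elsewhere. It was the 1 receptor of 5 past the line, against 3.83% of all genes.

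Markers of other cell types moved with KPF 2. The 8 striated muscle genes summed to 5100 CPM in KPF 2 and 6.15 to 16.9 CPM in the other libraries, a 301-fold difference, and 8 of 8 passed the line. Acta1, skeletal actin, had 8702 reads in KPF 2 and 5 to 39 elsewhere. The 6 brown adipocyte genes summed to 237 CPM against 0.673 to 2.67 CPM, nearly all from Cox8b (1506 reads in KPF 2) and Cox7a1 (1153 reads), respiratory chain genes that muscle also expresses. Ucp1, which defines brown fat, had 6 reads and Cidea 12 in KPF 2. The part of muscle in the excess of Lpl, Slc2a4, Plin4 and the members was not tested.

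Connective tissue fibroblast genes were spread differently in their sum, but not in each gene. Their sum was 150 CPM in KPF 1, 78.3 CPM in KPF 2 and 66.5 CPM in KPF 3, against 38.0 to 57.3 CPM in WPF. Dcn dominated it, at 112 CPM in KPF 1, 36.4 CPM in KPF 2 and 52.2 CPM in KPF 3. Of the 7 genes, 3 passed the line in KPF 2, against 3.83% of all genes. These were Pi16 at 3.71, Mfap5 at 3.12 and Clec3b at 2.64, and Mfap5 reached 20 reads only through KPF 2. The list was chosen with earlier results of these data known, so nothing is read from its shares here. Dpt, the dermatopontin gene, had 242, 222 and 64 reads in KPF and 28, 33 and 51 in WPF. Clec3b, the tetranectin gene, had 25, 71 and 7 reads in KPF and 1 in each WPF library. Without KPF 2, 3 of the 4 fibroblast genes tested were called higher, against 5.04% of all 10860 genes. These were Clec3b by 4.26, Dpt by 2.49 and Dcn by 1.09 on the log2 scale (edgeR adjusted p = 0.394, 0.396 and 0.443). Clec3b entered that fit through KPF 2, and with the minimum over the 5 libraries 2 of 3 were called. Their part in the levels of the members was not tested. Uterus and placenta markers summed to 0 in KPF 2 and to at most 0.0953 CPM elsewhere. Of the 8 stellate and sinusoidal endothelial genes 1 passed the line, Des, which muscle also expresses, at 9.03 times the highest other library. Urothelium, pancreatic acinar, bile duct, blood cell, leukocyte and macrophage lists had 0 genes past the line in KPF 2. They held 1, 5, 5, 3, 4 and 4 genes with at least 20 reads. At a share of 3.83% over all genes, nothing is read from these counts.

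**Figure D4:**
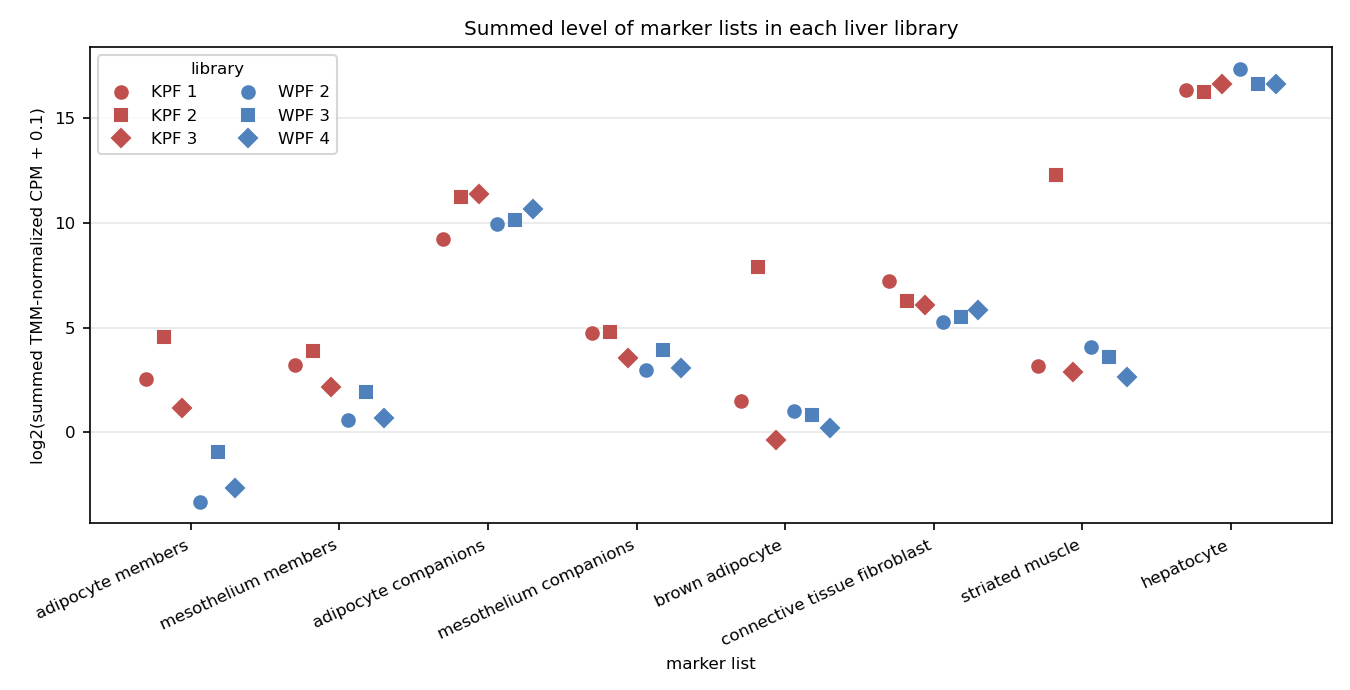
Points give log2 of the summed TMM-normalized CPM plus 0.1 of each marker list in each library (KPF red, WPF blue; circle, square and diamond in the order of the legend). The sum of the adipocyte members is higher in each KPF library than in any WPF library, at 2.11 CPM or more against 0.421 CPM or less. Cfd makes up 59.1% to 73.9% of its reads in KPF, while Adipoq overlaps between the groups and Lep is at 0. The members were chosen for KPF 2, so nothing is read from the order of this sum. The striated muscle list stands at 5100 CPM in KPF 2.

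The genes whose levels followed the members most closely were sought over the 6 libraries among 16910 genes with at least 20 reads that are not members, by Pearson's r with the mean log2(CPM + 1) of each set. The adipocyte mean was followed by Ackr3 (r = 0.995; 9, 21 and 6 reads in KPF, 3, 4 and 6 in WPF), Sncg, Klhl23, Mfap5 and Ly6c1, all at r of 0.991 or more. Mfap5, a microfibril gene of connective tissue, had 11, 37 and 2 reads in KPF and 0 in each WPF library. The mesothelium mean was followed by Surf2 (r = 0.999), Apod, Tppp3, AC102159.1 and Plxdc1, all at r of 0.989 or more. Surf2 ranged from 31.0 to 54.4 CPM, while Tppp3 had 17, 45 and 11 reads in KPF and 1, 7 and 5 in WPF. Of all these genes 2.90% reached an r of 0.9 with the adipocyte mean and 2.24% with the mesothelium mean. With 6 points that share their libraries, and a single high library among them, these values describe the order of the libraries.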

How the data were processed

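Liver libraries of 3 KPF and 3 WPF mice were used. The table that the authors deposited holds, for each gene, its raw read count and its FPKM in every library, the FPKM being the count over the exonic length and the counted reads. The submitters' processing notes name cutadapt 1.9.1, HISAT2 2.2.1, HTSeq 0.6.1, DESeq2 and GRCm39, with no role given, and whether counting used strand is not given in the sources used here. Gene symbols came from GENCODE M21 (52073 of 56691 IDs matched). Tf of the hepatocyte list found no match. Promoters came from RefSeq, GRCm38.p6, in which 7 of the 10 genes had an entry (Msln, Upk1b and Wt1 had none), and no coordinates were combined between the builds.

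The members and lists were chosen with earlier results of these data known. Named were all members, the 5 most abundant and the 5 with the largest ratio in KPF 2 of each companion list, the 5 most abundant receptors, up to 3 abundant genes of each other list, and the 5 genes most like each set. Genes outside this rule that are named in a count (Fabp4, Lipe and others) were named after their values were seen. Counts of genes whose mean FPKM reached 1 were fitted in R 4.3.3 by quasi-likelihood in edgeR (version 4.0.16) after TMM scaling, with Benjamini-Hochberg adjustment, over the 6 libraries and over 5 without KPF 2 (the mean taken over all 6 in both). A change was called at an unadjusted p under 0.05 and at least 1.5-fold. Limma 3.58.1 on log2(FPKM + 1) and DESeq2 1.42.0 were alternatives. The scripts were tested on simulated data. Nothing in the labels says more than that each library is a numbered mouse liver, and no 2 libraries of a group agreed within sampling noise, so p-values measure the spread between these samples. Intervals for ratios are exact and those for shares Wilson (scipy).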

Additional observations from a re-analysis of the deposited data

How the results depend on the processing

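The limits of these results are the small read numbers of 8 members, the 3 libraries a group and the single library KPF 2. The members' ratios in KPF 2 kept their side of the 2-fold line under DESeq2 size factors and FPKM + 0.1, while under library totals Upk1b crossed it at 2.04. Cfd and Msln kept their direction without KPF 2 in every alternative. By edgeR and DESeq2, Cfd was 4.48 to 8.08 and Msln 0.41 to 2.62. On the limma scales log2(FPKM + 1) and + 0.1, which the added constant compresses, Cfd was 1.72 and 4.14 and Msln 0.62 and 1.31.

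With a line at 4-fold, 328 genes, 2 adipocyte and 1 mesothelium companions passed it in KPF 2, and with at least 60 reads 2 mesothelium companions did, against 648, 6 and 4. Genes with an adjusted p under 0.05, 0 in both fits, numbered 286 and 106 (6 and 5 libraries) without the expression minimum, 156 and 168 by DESeq2, 1 and 1 by limma on log2(FPKM + 0.1) and 0 to 5 and 0 to 31 with 1 library left out. Genes called higher, 633 and 547, became 369 and 279 with library totals, 1576 and 1185 without the minimum, 252 and 252 at a mean FPKM of at least 5, 236 and 263 by limma on log2(FPKM + 1), 258 and 255 on log2(FPKM + 0.1), and 324 to 908 and 311 to 920 with 1 library left out. Genes called lower, 429 and 485, became 728 over 6 libraries with library totals, 910 and 1003 without the minimum, 206 and 243 at an FPKM of 5, 678 over 6 libraries by limma on log2(FPKM + 0.1), and 246 to 709 and 257 to 890 with 1 library left out. Library totals shifted the median of all genes to -0.12 and -0.16 and the share of called genes that were higher from 59.6% to 33.6% and from 53% to 28.04%.

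Adipocyte companions called higher over 6 libraries (5 of 12) numbered 9 of 20 without the minimum, 0 of 6 at an FPKM of 5 and 2 by either limma scale. With 1 library left out they numbered 1 to 6, the 1 being without KPF 2. Over 5 libraries (1 of 12) they numbered 2 with library totals, 4 of 20 without the minimum, 0 of 6 at an FPKM of 5 and 2 by DESeq2. There they numbered 0 of 10 with a mean FPKM of at least 1 over the 5 libraries (chosen after seeing the data) and 1 to 3 with 1 library left out. Mesothelium companions called higher over 6 libraries (1 of 3) numbered 3 of 14 without the minimum and 0 by limma on log2(FPKM + 1) and with the block. With 1 library left out they numbered 0 to 1. Over 5 libraries (0 of 3) they numbered 1 of 14 without the minimum and 0 to 2 with 1 left out. At an FPKM of 5 no mesothelium companion was tested in either fit.

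Directions over 6 libraries reversed for Cap1 (-0.093, -0.019, -0.072, -0.077) and Pde3b (-0.12, -0.027, -0.11, -0.13) with library totals, no minimum and limma on log2(FPKM + 1) and + 0.1, for Cd36 by both limma scales (-0.037, -0.045), and in single left-out libraries for Adipor1 (-0.11 to 0.047), Cd36 (-0.22 to 0.35), Car3 (-0.021 to 1.03) and Pde3b (-0.22 to 0.24). The cause was not tested.

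Replicate numbers 2 and 3 occur in both groups but mark different dams, and the deviations of same-numbered libraries correlated at 0.06 and -0.04 over 10866 genes, so the numbers pair nothing. With the replicate block 1 gene had an adjusted p under 0.05, 680 and 551 were called higher and lower, and Adipor1 (0.13), Cd36 (-0.37) and Krt19 (-0.36) reversed. No paired analysis was possible because the 5 libraries without KPF 2 share 1 number.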
